A study of Drosophila melanogaster with 2 samples.

Results

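The genes described here encode the 10 subunits of TFIIH in Drosophila melanogaster, and the data are binding sites of the zinc-finger protein Meics. The genes were taken as a list (Mat1, Cdk7, CycH, hay, Xpd, Tfb1, Tfb2, Ssl1, Tfb4 and Tfb5), which was chosen from signal values of these same peak lists, in which Mat1 has one of the strongest peaks. The counts and levels of the members are therefore descriptions without a test. The 10 genes are among 13945 protein-coding genes on the 6 chromosome arms, 9 matched by their symbol and Tfb2 by a synonym of the annotated symbol mrn.

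Chromatin immunoprecipitation and sequencing (ChIP-seq) was done on whole embryos aged 0 to 24 hours, of both sexes pooled, from a transgenic line named Meics-GFP. The line stably expresses Meics with GFP at its C-terminus, and an antibody against GFP was used, so the fusion protein and not the untagged protein was followed. Both samples carry this fusion and form 1 group, with the biological replicates numbered 1 and 3 in the labels. What drives the fusion gene, and in which cells it is present, is not given in the sources used here, and no control sample was analysed here. A whole embryo mixes all cell types and stages, so a weak peak cannot be told apart from a strong peak in few cells. The read depth of the libraries is unknown.

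TFIIH is a general transcription factor that opens the DNA at promoters of RNA polymerase II, and it opens damaged DNA in nucleotide excision repair. Its core holds the ATPase and translocase hay (the fly XPB), the helicase Xpd and the structural subunits Tfb1, Tfb2, Ssl1, Tfb4 and Tfb5. The kinase module, called CAK, holds the kinase Cdk7, its cyclin CycH and the assembly factor Mat1. CAK phosphorylates the tail of RNA polymerase II and also activates the cyclin-dependent kinases of the cell cycle.

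The DNA just upstream of 5 of the genes is shown first, as examples with a strong peak (Ssl1), a weak peak (CycH), a region in a single replicate (Tfb5) and no region in any list (Tfb2 and Tfb4). Each is RefSeq sequence of the assembly that dm6 names, 5′ to 3′ in the direction of the gene, and ends 1 base before the annotated transcription start site (TSS). Capitals mark CGATA on either strand, where it reads CGATA or TATCG. This word is the core of the longer element TATCGATA, which is bound by DREF, and of the site of BEAF-32. The CycH stretch is chr3L:21821807-21821996 on the plus strand, and the peak summit is its base 53. The Ssl1 stretch is chr3L:22878989-22879088 on the plus strand, and its summit lies farther upstream. The Tfb5 stretch is chr2L:5010835-5010921, the Tfb2 stretch chr3L:15580538-15580637 and the Tfb4 stretch chr2L:1150678-1150765, all on the minus strand. Those of Tfb5 and Tfb4 are shorter because they end at the start of the next gene.
CycH: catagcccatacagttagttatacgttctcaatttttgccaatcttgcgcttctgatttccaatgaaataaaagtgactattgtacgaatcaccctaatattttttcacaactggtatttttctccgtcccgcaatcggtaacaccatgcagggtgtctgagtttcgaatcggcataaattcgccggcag
Ssl1: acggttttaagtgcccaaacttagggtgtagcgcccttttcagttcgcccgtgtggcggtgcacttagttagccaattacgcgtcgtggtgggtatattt
Tfb5: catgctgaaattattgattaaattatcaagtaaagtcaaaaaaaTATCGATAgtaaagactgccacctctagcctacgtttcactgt
Tfb2: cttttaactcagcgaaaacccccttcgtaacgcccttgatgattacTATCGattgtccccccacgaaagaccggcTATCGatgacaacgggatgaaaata
Tfb4: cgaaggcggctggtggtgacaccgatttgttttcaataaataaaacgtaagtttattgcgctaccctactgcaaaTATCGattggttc

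The upstream DNA of Mat1, Xpd and Tfb1 is not shown here. These 3 genes have a peak and also hold CGATA within 50 bp of a TSS, so the word does not separate members with a peak from those without. The CycH and Ssl1 stretches hold no such word, and at Ssl1 the nearest match lies outside the stretch, 5 bp from the summit. The stretches of Tfb2 and Tfb4 hold 2 and 1. The Tfb5 stretch holds the complete TATCGATA, and a region there was listed in replicate 3 only.

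Peaks were present at the promoters of 5 of the 10 TFIIH genes, and they differed widely in strength. Mat1 and Ssl1 had peaks among the strongest of the genome, Xpd had one near the middle of the list, and CycH and Tfb1 had weak ones. Cdk7, hay, Tfb2, Tfb4 and Tfb5 had none. A gene was counted when the summit of a peak lay within 500 bp of any of its TSSs. The list used was thresholded by irreproducible discovery rate (IDR), which compares ranks between replicates, and it held 7689 peaks. A peak in this list need not have a region in both replicate lists, and that of Tfb1 had none in replicate 3. Among all coding genes, 26.1% had such a summit (Wilson 95% interval 25.4 to 26.9, counting error only). In CAK the count was 2 of 3 genes and in the core 3 of 7. In the strongest 50% of the list the count was 3 of 10 (Mat1, Ssl1 and Xpd), beside 16.5% of coding genes.

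**Figure D1:**
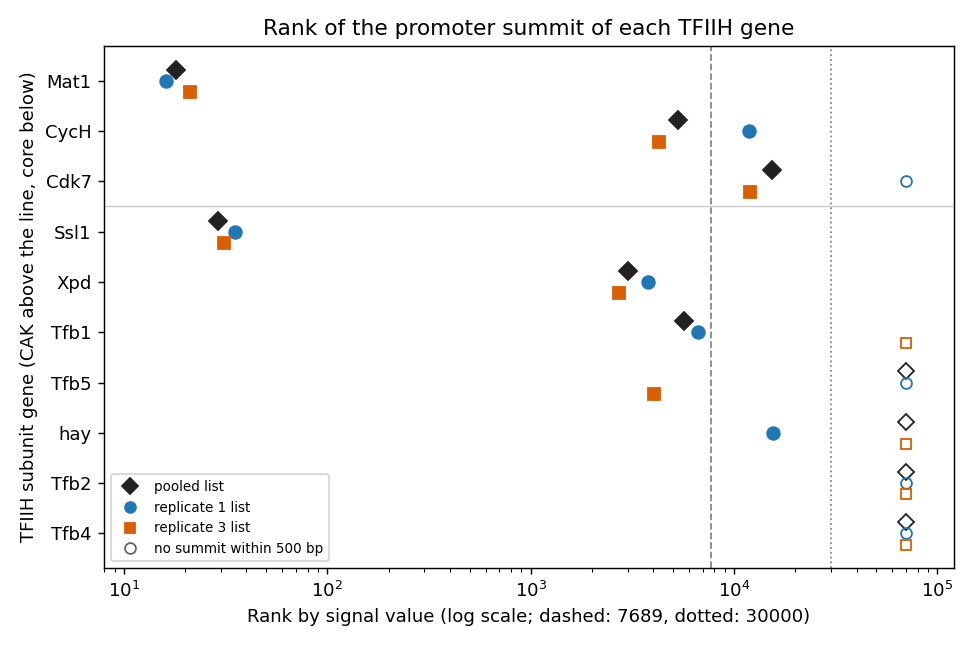
Rank of the strongest summit within 500 bp of a TSS of each TFIIH gene, by signal value on a log axis, in the pooled list, the list of replicate 1 and the list of replicate 3. Open symbols at the right stand for no summit. Mat1 and Ssl1 lie between ranks 16 and 35 in all 3 lists, Xpd between 2731 and 3773, and the other members lie at rank 4030 or beyond or have no summit.

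The strength of a peak is given as the signal value that the authors deposited for it, used only to rank and describe peaks within a list. The 5 members with a summit had a median signal value of 320.2, beside 300.6 over all 3307 summits at coding promoters. The spread was wide, from 189.8 at Tfb1 to 4576.7 at Mat1. Each replicate list and the pooled list held 30000 regions, including background regions, and the IDR-thresholded list was the upper 7689 of the pooled list.

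Mat1, which holds Cdk7 and cyclin H together, had the strongest peak of the set. Its signal value was 4576.7 in the IDR-thresholded list, at rank 18 and 17.5 times the median of that list. In replicate 1 the value was 2183.4 at rank 16, and in replicate 3 it was 2399.0 at rank 21. The replicates thus placed it at nearly the same rank. The peak covered 544 bp of 2R, 10739618 to 10740161. Its highest point was 10739887, or 58 bp ahead of the only annotated TSS of Mat1 (FBgn0024956, 2R from 10738617 to 10739829, minus strand). The summit lay in the 224 bp between Mat1 and the 3′ end of CG33144, which runs in the same direction, and no other TSS lay within 500 bp of it. The summits of the replicates were 3 bp apart, where the median over 3230 promoter peaks found in both was 18 bp (quartiles 6 and 41 bp).

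The genes with ranks most like Mat1 over the pooled list and both replicate lists were BubR1, Ptp99A and mRpL41. BubR1, a kinase of the spindle checkpoint, was at ranks 19, 19 and 20. Ptp99A, a receptor tyrosine phosphatase, was at 17, 18 and 17. mRpL41, a protein of the mitochondrial ribosome, was at 21, 21 and 23. Likeness was the summed difference in rank over 3 lists, of which the pooled one is made from the other two, and it describes these ranks only.

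CycH, the cyclin that partners Cdk7, had a weak peak that the replicates ranked differently. The signal value was 201.3 at rank 5280, which is 0.768 of the list median. In replicate 1 it was 41.5 at rank 11872, and in replicate 3 it was 146.3 at rank 4260. Only replicate 3 therefore placed CycH among its 7689 strongest regions. Of promoter summits of all strengths in the IDR-thresholded list, 10.7% lay past rank 7689 in replicate 1 and 6.95% in replicate 3. The shares among summits as weak as that of CycH are not given here. The summit was at 3L 21821859, 138 bp upstream of the TSS of CycH (FBgn0022936, 3L from 21821997 to 21823309, plus strand), in intergenic sequence whose nearest gene upstream ended 4396 bp away. The summits of the replicates were 6 bp apart.

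Cdk7, the kinase of the module, had no IDR-thresholded summit, and the nearest lay 3194 bp from its TSS. The pooled list held a region at the promoter with a signal value of 73.1 at rank 15446, near the median of that list. Replicate 3 had a region there with a value of 58.4 at rank 12024, and replicate 1 had none. Its summit was 186 bp upstream of the TSS of Cdk7 (FBgn0263237, X from 5307465 to 5308983, minus strand) and 73 bp upstream of the TSS of snf, which starts on the other strand and encodes a protein of the spliceosome. CAK thus had a very strong, a weak and a sub-threshold region at its 3 genes.

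Ssl1, a structural subunit that contacts Xpd, had the second strong peak. Its signal value was 3535.3 at rank 29, which is 13.5 times the list median. In replicate 1 it was 1404.9 at rank 35 and in replicate 3 it was 2137.2 at rank 31. The summit was at 3L 22878899, 190 bp upstream of the nearer of the 2 TSSs of Ssl1 (FBgn0037202, 3L from 22879089 to 22880963, plus strand). It was closer to another gene, since it lay 85 bp downstream of the TSS of Chro, within the 5′ UTR. Chro encodes a chromatin protein that is also part of the spindle matrix, and it runs away from Ssl1 with 104 bp between the genes. The peak is thus shared, and the lists cannot assign it to Ssl1 or to Chro.

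Xpd, the helicase that joins the core to CAK, had a peak close to the typical strength. Its signal value was 320.2 at rank 3010, beside a median of 262.0 for the list. In replicate 1 it was 113.3 at rank 3773 and in replicate 3 it was 204.9 at rank 2731, so both placed it well within their 7689 strongest regions. The summit was at 2R 21170885, 116 bp upstream of the TSS of Xpd (FBgn0261850, 2R from 21171001 to 21174504, plus strand). It was also 213 bp upstream of the TSS of LSm1, a gene of mRNA decay on the other strand.

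Tfb1, a scaffold subunit of the core, had the weakest of the 5 peaks. Its signal value was 189.8 at rank 5654, which is 1.31 times the lowest value of the IDR-thresholded list. In replicate 1 it was 70.2 at rank 6635, and replicate 3 had no region within 500 bp, its nearest summit being 1058 bp away. Among promoter summits of all strengths such a gap was uncommon, since 34 of 3307 (1.03%) had no region in replicate 3 within 230 bp. The share among summits as weak as that of Tfb1 is not given here. The summit was at 2R 14363011, 37 bp upstream of the nearer of the 2 TSSs of Tfb1 (FBgn0033929, 2R from 14363048 to 14365473, plus strand). The gene upstream, Arc2, runs in the same direction and ended 222 bp before Tfb1.

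Tfb5, the small subunit that stabilises the complex, was discordant between the replicates. Replicate 3 had a region with a signal value of 153.0 at rank 4030, and replicate 1 had none within 500 bp, its nearest summit being 3325 bp away. The summit, at 2L 5010921, was 87 bp upstream of the TSS of Tfb5 (FBgn0265968, 2L from 5009931 to 5010834, minus strand) and 1 bp upstream of the TSS of SelT, a selenoprotein-like gene on the other strand. The pooled list had no region there. It had one 1094 bp downstream of the Tfb5 TSS, past the end of the gene, with a signal value of 142.5 at rank 7796, just under the lowest value of the IDR-thresholded list (144.4). The annotation gives Tfb5 the same start and end as CG31917, so the same values stand for both genes.

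The ATPase gene hay (FBgn0001179, 3L from 10631079 to 10633969, plus strand) had a region in replicate 1 only, with a signal value of 33.3 at rank 15550. Its summit was 56 bp downstream of the TSS, in the 5′ UTR, and hay shares this TSS with CG34001. The nearest IDR-thresholded summit was 6731 bp away. Tfb2 (mrn, FBgn0261109, 3L from 15578769 to 15580537, minus strand) and Tfb4 (FBgn0031309, 2L from 1149445 to 1150677, minus strand) had no region within 500 bp in any list. Their nearest summits in the pooled list were 7099 and 6130 bp away. Absence from a list says that no region was ranked there, and a level of binding below it was not measured.

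**Figure D2:**
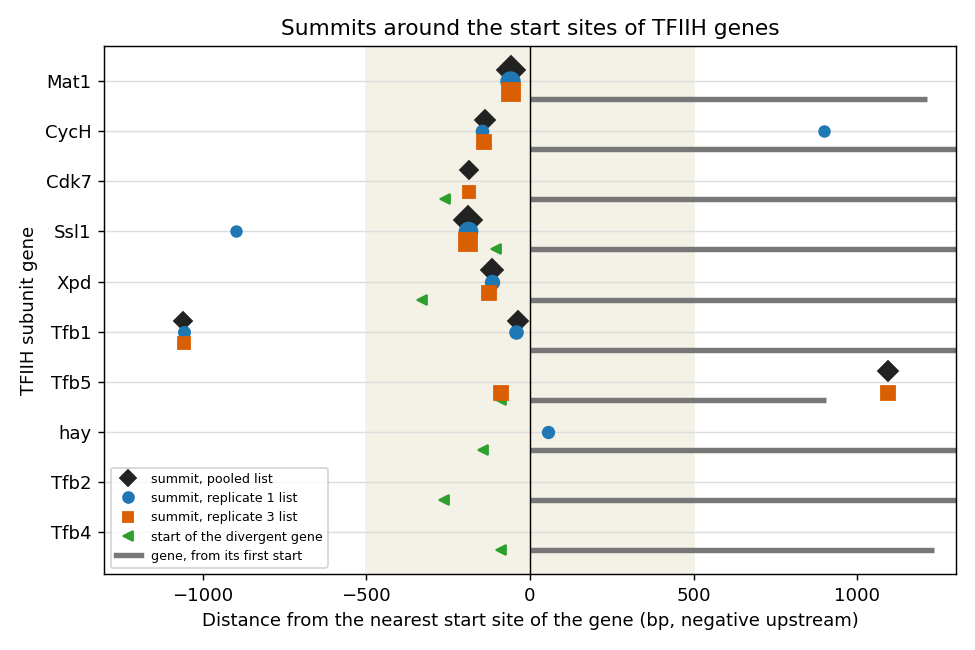
Summits of the pooled list and of each replicate list by distance from the nearest TSS of each TFIIH gene, in bp, with larger symbols for higher signal values on a log scale. The shaded band is the 500 bp window, grey bars are the genes and green triangles are starts of genes on the other strand. Summits of Mat1, CycH, Cdk7, Ssl1, Xpd and Tfb1 lie 37 to 190 bp upstream in the pooled list.

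The 2 replicates gave nearly the same count with partly different genes. Among the 7689 strongest regions of replicate 1, 4 members had a summit (Mat1, Ssl1, Tfb1 and Xpd), beside 26.2% of coding genes. In replicate 3 there were 5 (Mat1, Ssl1, Xpd, CycH and Tfb5), beside 26.8%. Mat1, Ssl1 and Xpd are the 3 members in both. Over the whole lists of 30000 regions, the count was 6 of 10 in replicate 1 (45.9% of coding genes), 6 in replicate 3 (48.5%) and 6 in the pooled list (46.2%). The members of these lists again differed, with hay and Tfb1 in replicate 1 only and Cdk7 and Tfb5 in replicate 3 only.

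All 5 summits lay upstream of their own gene, between 37 and 190 bp from the TSS. Measured from the nearest coding TSS of any gene, 4 lay upstream and that of Ssl1 lay 85 bp downstream, in Chro. By this second measure, over all promoter summits, 79.3% lay upstream of or at the nearest coding TSS, with a median position of -103 bp and quartiles of -211 and -19 bp. The summits of Mat1, CycH, Xpd and Tfb1 were within these quartiles and that of Ssl1 was not. No member had an IDR-thresholded summit inside the gene, beside 17.1% of all coding genes and 6.72% of the 7028 genes that span 904 to 3504 bp as the members do. In the replicate lists there were a region in an intron of CycH (replicate 1, signal value 21.2, rank 27162) and the one in the 5′ UTR of hay. Outside the 500 bp window, a region lay 897 bp upstream of Ssl1 in replicate 1, in the 5′ UTR of Chro (signal value 20.1, rank 28967). Another lay 1058 bp upstream of Tfb1 in replicates 1 and 3, in the 5′ UTR of Arc2.

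**Figure D3:**
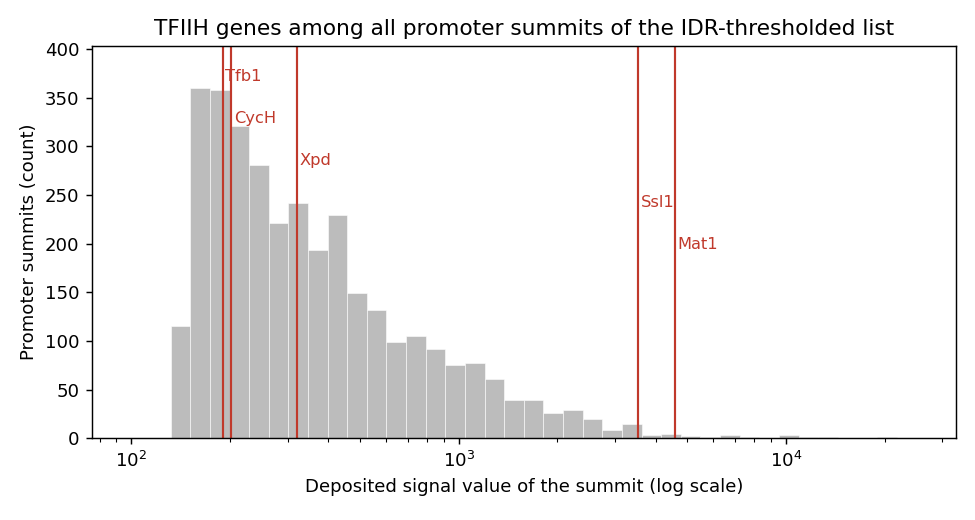
Signal values of the 3307 summits at coding promoters in the IDR-thresholded list, as counts per bin on a log axis, with a red line for each TFIIH gene that has a summit. Mat1 (4576.7) and Ssl1 (3535.3) stand in the upper tail, and Xpd (320.2), CycH (201.3) and Tfb1 (189.8) in the bulk.

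Most TFIIH genes are divergent, which here means that a coding gene starts on the opposite strand at most 500 bp upstream. This held for 7 of 10 members, beside 27.4% of all coding genes. The partners were snf for Cdk7, CG42535 for hay, LSm1 for Xpd, CG12301 for Tfb2, Chro for Ssl1, Vps29 for Tfb4 and SelT for Tfb5. The summits at members were also counted by this arrangement. Of the 7 members with a partner, 2 had an IDR-thresholded summit (Ssl1 and Xpd), beside 45.1% of all such genes. The 3 members without a partner (Mat1, CycH and Tfb1) all had a summit, beside 19.0% of such genes. With 10 genes these counts describe the members and were not tested. They are too few to say whether the members differ from all genes in this.

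The word CGATA was common at the starts of TFIIH genes, with or without a peak. At 8 of 10 members it was found no more than 50 bp from a TSS, the exceptions being CycH and Ssl1, beside 30.2% of all coding genes. It was present at 39.3% of coding genes with an IDR-thresholded summit and at 27.0% of those without. Among members it was present at 3 of 5 with a summit and at 5 of 5 without. Of the 7 divergent members 6 held it, beside 43.4% of all divergent genes. The longer word ATCGATAG was at Cdk7, Tfb2, Tfb5 and Xpd, 4 of 10 members beside 5.66% of coding genes, and every such match also holds CGATA. These words were singled out after their values were seen, and a match is not a binding site.

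Windows around the summits were searched in the same way. CGATA lay within 50 bp of 2 of the 5 summits, 5 bp from that of Ssl1 and 19 bp from that of Tfb1, and the same window held it at 19.5% of all promoter summits. At Mat1 and Xpd the nearest match was 89 and 88 bp from the summit. None of the 5 summit windows held TATCGATA (3.02% of promoter summits), the M1BP word GGTCACACT (1.36%), TATAAA (20.7%), CACGTG (0.998%), GAGAG (10.5%), GTGACGAA (1.18%), GTAACGAA (0.847%), ATCGATAG (3.57%) or TTTAAAAA (6.38%). The 10 words were searched on both strands, the last 4 of them were found in these data by an earlier analysis, and ATCGATAG and TATCGATA overlap each other and CGATA. The GC content of the 101 bp at the summits was 25.7% at Xpd, 32.7% at Ssl1, 33.7% at CycH, 35.6% at Tfb1 and 39.6% at Mat1. All but that of Xpd lay within the quartiles over all promoter summits (27.7 and 44.6%).

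Other genes of the steps in which TFIIH acts were also examined, as 4 lists with 46 genes in all. By the same rule, 16 of them had an IDR-thresholded summit (34.8%), beside the 26.1% of all coding genes. With a window of 200 bp the count was 9 of 46, beside 18.6% of coding genes, so the gap between the lists and all genes depended on the window. Among the other general transcription factors of RNA polymerase II the count was 5 of 12. TfIIA-L had a signal value of 454.2 (rank 1834), TfIIB 428.3 (rank 2025), TfIIA-S 415.0 (rank 2133) and TfIIEbeta 273.5 (rank 3664). TfIIA helps the TATA-binding protein to bind, TfIIB brings in the polymerase, and TFIIE recruits TFIIH. The first 3 values lie above that of Xpd and the last below it, and all 4 are far under that of Mat1. TfIIB had no region within 500 bp in replicate 1. The summits at TfIIA-L and TfIIB were closer to the TSSs of pll (80 bp) and Bug22 (89 bp).

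Of the 13 genes of nucleotide excision repair, 2 had a summit (15.4%), beside 26.1% of all coding genes. Ercc1, part of the nuclease that cuts beside the damage, had a signal value of 13242.9 at rank 2 in the IDR-thresholded list and in each replicate. Its summit was 203 bp upstream of the Ercc1 TSS but 85 bp from that of SMC2, a condensin gene, so this peak is shared as that of Ssl1 and Chro is. RPA1, the large subunit of the single-strand binding protein, was at 433.8 (rank 1977), with the TSS of Mcm2 closer to the summit (117 bp) than its own (402 bp). The damage sensor Xpc had a region at rank 1863 in replicate 1 and none in replicate 3, and it had no summit in the thresholded list.

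The other cyclin-dependent kinases had a summit at 5 of 9 genes (55.6%) and the other cyclins at 4 of 12 (33.3%). Both stand beside 26.1% of all coding genes. Cdk12, which phosphorylates the polymerase tail during elongation, was at 643.9 (rank 1114), and Cdk1, the mitotic kinase that CAK activates, at 487.8 (rank 1646). Eip63E was at 312.4 (rank 3125) and Pitslre at 282.1 (rank 3521). Among the cyclins koko was at 1220.6 (rank 375), CycE, which drives entry into DNA synthesis, at 1056.7 (rank 495), CycT, the partner of Cdk9, at 332.8 (rank 2851) and CycG at 149.1 (rank 7429). The summits at koko, Cdk1 and Pitslre were closer to the TSSs of Wdr37, mRpS7 and CG4042. None of the summits in these 4 lists was shared with a TFIIH gene.

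**Figure D4:**
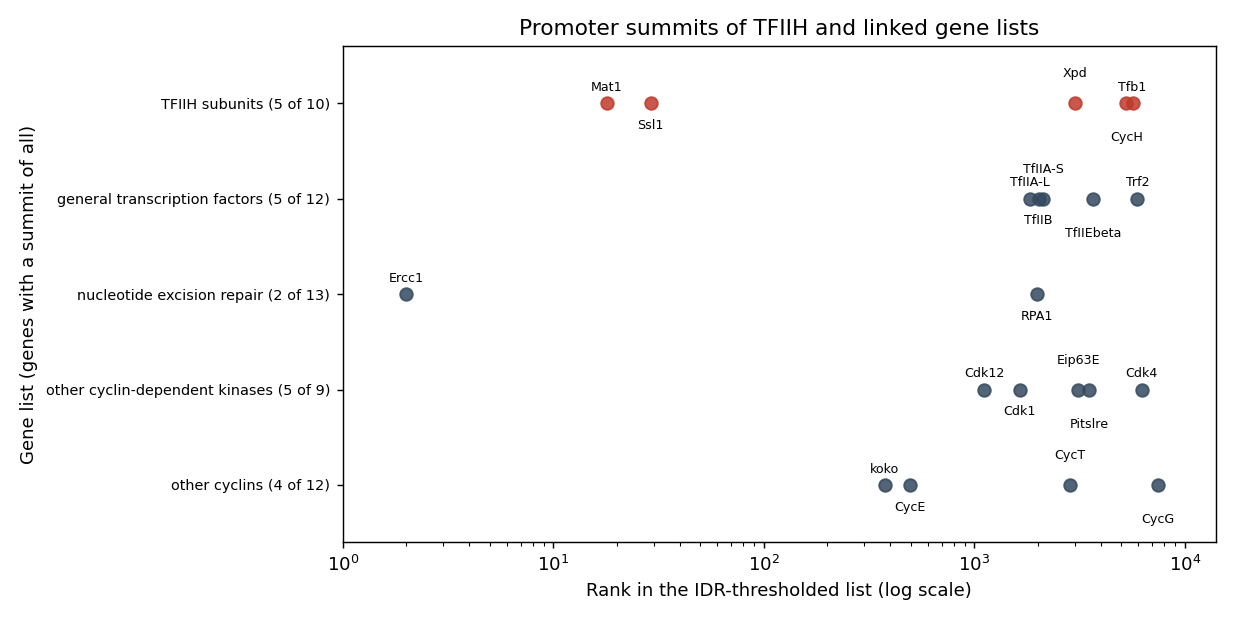
Rank in the IDR-thresholded list, on a log axis, of the strongest summit within 500 bp of a TSS for TFIIH genes (red) and for the 4 linked lists (dark), with the number of genes that have a summit beside each list. Ercc1 at rank 2 is the only gene of the linked lists ranked above Mat1 (18) and Ssl1 (29).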

How the data were processed

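Chromatin of embryos was sonicated, with fragments of 200 to 800 bp per the labels. The authors deposited peak lists on the dm6 and dm3 builds, and the dm3 lists were not used here. The deposited notes of each sample name the narrowPeak format. The aligner, caller and IDR cutoff were not given in the sources used here. The deposited signal value (column 7) ranked regions within each list, ties sharing the lower rank. The deposited −log10 q-value, at most 4.13 in the pooled list, reached its ceiling in many peaks and ranked nothing. Summits were read as start plus column 10 and are given 1-based.

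Ensembl gene models (BDGP 6.54, coordinates as in dm6) without transposable elements gave the TSSs, and RefSeq gave the sequence. A gene had a peak when a summit lay within 500 bp of any TSS. The members and lists were chosen with earlier results of these data known. The text names all members, genes with a TSS within 500 bp of a member's summit, at most 4 genes per linked list with the strongest summits, and the 3 genes closest to Mat1 in rank. Xpc was named in addition after its values were seen. RPA1, PolD1 and Xpc were listed under older symbols. No test was run, because there is 1 group. For a replicate taken alone, its 7689 strongest regions stood in for the IDR-thresholded list. Intervals cover counting error only. The assignment of summits to genes was checked on simulated data against a direct search. Scripts ran in Python 3.11.15 with pandas 2.3.3, numpy 2.4.6 and scipy 1.17.1, and figures were drawn with matplotlib 3.10.9.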

Additional observations from a re-analysis of the deposited data

How the results depend on the processing

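The count of 5 TFIIH genes with a promoter summit was the same with windows of 200 bp (18.6% of coding genes) and 1000 bp (30.3%). It was also the same with the whole peak interval (28.1%) and with the first annotated TSS alone (23.6%). The genes were the same in these settings, while the share of coding genes moved. The count was 3 (Mat1, Ssl1 and Xpd) with the strongest 50% of the IDR-thresholded list (16.5% of coding genes) and 6 in the whole pooled list (46.2%). It was 5 with replicate 1 left out (26.8%) and 4 with replicate 3 left out (26.2%). Mat1, Ssl1 and Xpd were counted in every one of these settings. The count of 16 of 46 genes in the linked lists was 9 with the 200 bp window (18.6% of coding genes) and 28 in the whole pooled list (46.2%). It was 18 with the 1000 bp window (30.3%), 17 with the whole peak interval (28.1%) and 13 with the strongest 50% of the list (16.5%). With replicate 1 left out it was 17 (26.8%), and with replicate 3 left out it was 17 (26.2%). No member had a summit in its gene body under the 4 alternatives tried. With a replicate left out, the signal value relative to the median of the 7689 strongest regions ranged from 0.372 to 0.920 for CycH, from 15.1 to 19.6 for Mat1, from 1.01 to 1.29 for Xpd and from 12.6 to 13.4 for Ssl1. For Tfb1 it was 0.629 in replicate 1, and replicate 3 gave no value. The count of 8 members with CGATA within 50 bp of a TSS stood beside 30.2% of coding genes. Within 100 bp the count was again 8, while the share of coding genes was 44.7%. It was 7 in the 100 bp upstream only, without Mat1 (32.9%), and 8 with the first annotated TSS alone (25.8%). These settings were chosen after the data were seen. The depth is unknown. How far it limits the weak regions at Cdk7 and hay, or the region at Tfb5 listed in replicate 3 only, cannot be given. No paired analysis was possible because there is 1 group.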
